A study of Mus musculus with 6 samples.

Results

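Bone morphogenetic protein (BMP) genes were measured in otic vesicles, the closed epithelial sacs from which the inner ear grows, microdissected from mouse embryos at embryonic day 11.5. The 10 genes comprise the ligand genes Bmp2, Bmp4, Bmp5 and Bmp7, the secreted modulator gene Bmper, the inhibitory Smad genes Smad6 and Smad7, and the BMP-responsive genes Id1, Id2 and Id3. They were taken as all probe sets of an Affymetrix mouse array that the platform annotation assigns to only 1 of these symbols, which gave 17 of 45037 probe sets for 10 of 18193 named genes. Bmp5, Bmp7 and Id2 had 3 probe sets each, Smad7 had 2, and the other 6 genes had 1.

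The Mest-KO embryos carried a conditional deletion of the transcription factor gene Tbx1 by T-Cre, and the control embryos were T-Cre conditional Tbx1 heterozygotes, so that both groups carried T-Cre and the controls were not wild type for Tbx1. T-Cre is active in early mesoderm, and the title of the series describes the knockout as mesodermal. There were 3 arrays per group, and every array carried a pool of both ears of 3 embryos sharing a genotype, so differences between embryos within a pool are not visible. The question was how the vesicle differs when Tbx1 is lost from mesoderm. Because the tissue was measured in bulk, fewer cells of a type and less RNA per cell cannot be told apart.

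BMPs are secreted ligands that bind paired receptor kinases, which phosphorylate Smad1, Smad5 and Smad9. These enter the nucleus with Smad4 and switch on target genes, among them the Id genes and the inhibitory Smads, which feed back on the receptors. In the ear, BMP signals act in the patterning of the vesicle along its dorsoventral axis, in the sensory patches of the semicircular canals and in the outgrowth of the canals.

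All 17 probe sets passed the filter on dim values, with a mean level over the 6 arrays above the 40th percentile of all (an intensity of 34.4). None passed the test between Mest-KO and control vesicles in limma, a linear model fitted across 27022 probe sets with Benjamini-Hochberg adjustment. The smallest adjusted p of the 17 was 0.969, and 0% of all probe sets tested passed an adjusted p of 0.05. At an unadjusted p under 0.05 stood 1 of the 17, Smad6, against 3.98% of all 27022 in either direction. Of all 27022, 2.25% were both under that p and lower in Mest-KO. The 3 probe sets whose groups did not overlap, all lower in Mest-KO, read Smad6, Id2 and Id3, and 5.20% of all probe sets were lower without overlap. None of the 17 was higher without overlap, against 4.17% of all. Differences below are log2, Mest-KO minus control, after quantile normalization, with the standard error (SE) of the fit, and lower or higher describes the means. Per-array values are the deposited linear intensities of arrays 1, 2 and 3.

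Promoters were available for 6 of the 10 genes, from RefSeq on GRCm38.p6, each from 250 bases before to 50 bases after a transcription start. Those of Smad6, Id2 and Id3 are printed on the coding strand, because each of these genes had 1 probe set whose groups did not overlap (for Id2, 1 of 3). Capitals mark GGCGCC, a palindromic GC-rich core that Smad1 and Smad5 bind, GTCTAGAC, the palindromic Smad box, and GCCGNCGC, a GC-rich site known from the Drosophila Smad, each searched on both strands. Smad6 lies on the minus strand at chr9:64022010-64022309, Id2 on the minus strand at chr12:25096043-25096342 and Id3 on the plus strand at chr4:136143572-136143871.
Smad6: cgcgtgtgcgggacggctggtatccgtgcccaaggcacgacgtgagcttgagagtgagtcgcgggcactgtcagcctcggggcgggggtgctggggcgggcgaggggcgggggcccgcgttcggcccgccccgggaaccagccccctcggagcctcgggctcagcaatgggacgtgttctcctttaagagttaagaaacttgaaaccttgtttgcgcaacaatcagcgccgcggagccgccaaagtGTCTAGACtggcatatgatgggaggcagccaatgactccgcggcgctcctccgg
Id2: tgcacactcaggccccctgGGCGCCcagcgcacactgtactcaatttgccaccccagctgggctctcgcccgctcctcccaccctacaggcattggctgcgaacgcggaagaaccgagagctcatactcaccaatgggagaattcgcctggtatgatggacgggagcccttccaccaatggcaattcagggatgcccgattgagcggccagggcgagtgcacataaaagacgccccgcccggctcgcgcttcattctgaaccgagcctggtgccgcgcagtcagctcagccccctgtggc
Id3: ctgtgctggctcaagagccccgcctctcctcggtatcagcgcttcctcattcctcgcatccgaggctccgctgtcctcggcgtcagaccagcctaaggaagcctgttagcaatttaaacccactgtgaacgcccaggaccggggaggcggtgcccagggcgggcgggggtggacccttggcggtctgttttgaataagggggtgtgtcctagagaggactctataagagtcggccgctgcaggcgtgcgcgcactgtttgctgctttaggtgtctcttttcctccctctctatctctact

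GTCTAGAC occurred once in the Smad6 window, overlapping the transcription start, and in 0.213% of 32851 promoters of the same length. GGCGCC occurred once in the Id2 window, 231 bases before the start, and in 11.9% of promoters. GCCGNCGC was in none of the 6 promoters and in 9.76% of all. The Id3 window held none of these 3 motifs. The 4-letter core GTCT, which is part of GTCTAGAC, was in all 6 and in 88.0% of all promoters. These matches describe letters in a short window and are not binding sites.

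Smad6 encodes an inhibitory Smad that acts mainly on the BMP branch of the pathway. Its intensity was 141, 143 and 177 in Mest-KO vesicles, against 198, 302 and 179 in control vesicles. Every Mest-KO array lay below every control array, but Mest-KO 3 and control 3 were nearly equal, and control 2 stood far above the rest. Mest-KO averaged 154 ± 20.5 and control 226 ± 66.3 (SD, n = 3 each). On the log2 scale this was -0.58 (SE 0.227), and the 95% interval ran from -1.14 to -0.033. In limma the adjusted p was 0.969. An exact permutation test, two-sided, gave p = 0.1, and 3 against 3 arrays cannot give less. Without control 2 the difference was -0.33. Mest-KO 1 and control 2 were each a pool of 1 sex, opposite to each other, and without both pools the difference was -0.29.

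Smad6 is also expressed in endothelium, so the endothelial markers are given beside it. Of 11 such markers 4 lay above the filter, all 4 with a higher mean in Mest-KO, and Pecam1, Cdh5 and Kdr lay below it. The summed intensity of the 11 ranged from 541 to 800 in Mest-KO and from 553 to 624 in control. The part of endothelium in the value of Smad6 was not tested.

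Smad7 encodes the inhibitory Smad that blocks both BMP and TGF-beta receptors. Its probe set 1423389_at read 1370, 1462 and 1380 in Mest-KO, against 1663, 1434 and 1648 in control. The Mest-KO arrays were close together, and control 2 fell among them while control 1 and control 3 stood higher. The fit put Mest-KO below control by -0.17 log2 units (SE 0.102, limma adjusted p 0.969). The other probe set, 1443771_x_at, read 1259, 1676 and 1688 in Mest-KO, against 1508, 1498 and 1412 in control, a log2 difference of 0.053 (SE 0.148), which was -0.097 with median centring of the arrays. Here Mest-KO 1 was the lowest array and the other Mest-KO arrays were the highest, so the groups overlapped again. The suffix x marks a probe set with probes that may also match other sequences.

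Id proteins bind basic helix-loop-helix transcription factors and keep them from DNA, and Id genes are widely used as a readout of BMP signalling. Id3 read 2920, 2979 and 2770 in Mest-KO, against 3251, 3583 and 3068 in control. Every Mest-KO array was below every control array, and control 2 was again the highest. Mest-KO averaged 2890 ± 108 and control 3301 ± 261 (SD, n = 3 each), a log2 difference of -0.18 (SE 0.0952). The 95% interval ran from -0.41 to 0.050, the limma adjusted p was 0.969 and the exact permutation p was 0.1.

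Id2 was read by 3 probe sets with different results. On 1422537_a_at it had 4129, 3875 and 4166 in Mest-KO, against 4259, 4819 and 5200 in control, with no overlap between the groups. The fit gave -0.20 (SE 0.107), with a limma adjusted p of 0.969. On the brightest probe set, 1435176_a_at, it had 6036, 7362 and 6231 in Mest-KO, against 6661, 6464 and 5983 in control, and the groups overlapped, with Mest-KO 2 the highest array. Its difference was 0.070 (SE 0.116), or -0.12 with median centring. Over the 6 arrays these probe sets had a Pearson correlation of -0.79, given as a description. Mest-KO 2, the highest array on the brightest probe set, was the lowest on 1422537_a_at.

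The third Id2 probe set, 1453596_at, was dim, with 74.3, 77.2 and 187 in Mest-KO, against 154, 73.6 and 139 in control. Its values split across the groups, with Mest-KO 3, control 1 and control 3 high and the other arrays low. The difference was -0.26 (SE 0.385), and leaving out 1 array moved it between -0.66 without Mest-KO 3 and -0.063 without Mest-KO 1. The annotation does not say which Id2 transcripts each probe set reads.

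Id1 had 1355, 1450 and 1432 in Mest-KO, against 1276, 1591 and 1471 in control. The Mest-KO arrays lay inside the range of the controls. Their log2 difference was -0.023 (SE 0.118), and its 95% interval, from -0.31 to 0.26, contains the differences of Id3 and of both lower Id2 probe sets. The values therefore do not show that Id1 behaved differently from the other Id genes.

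**Figure D1:**
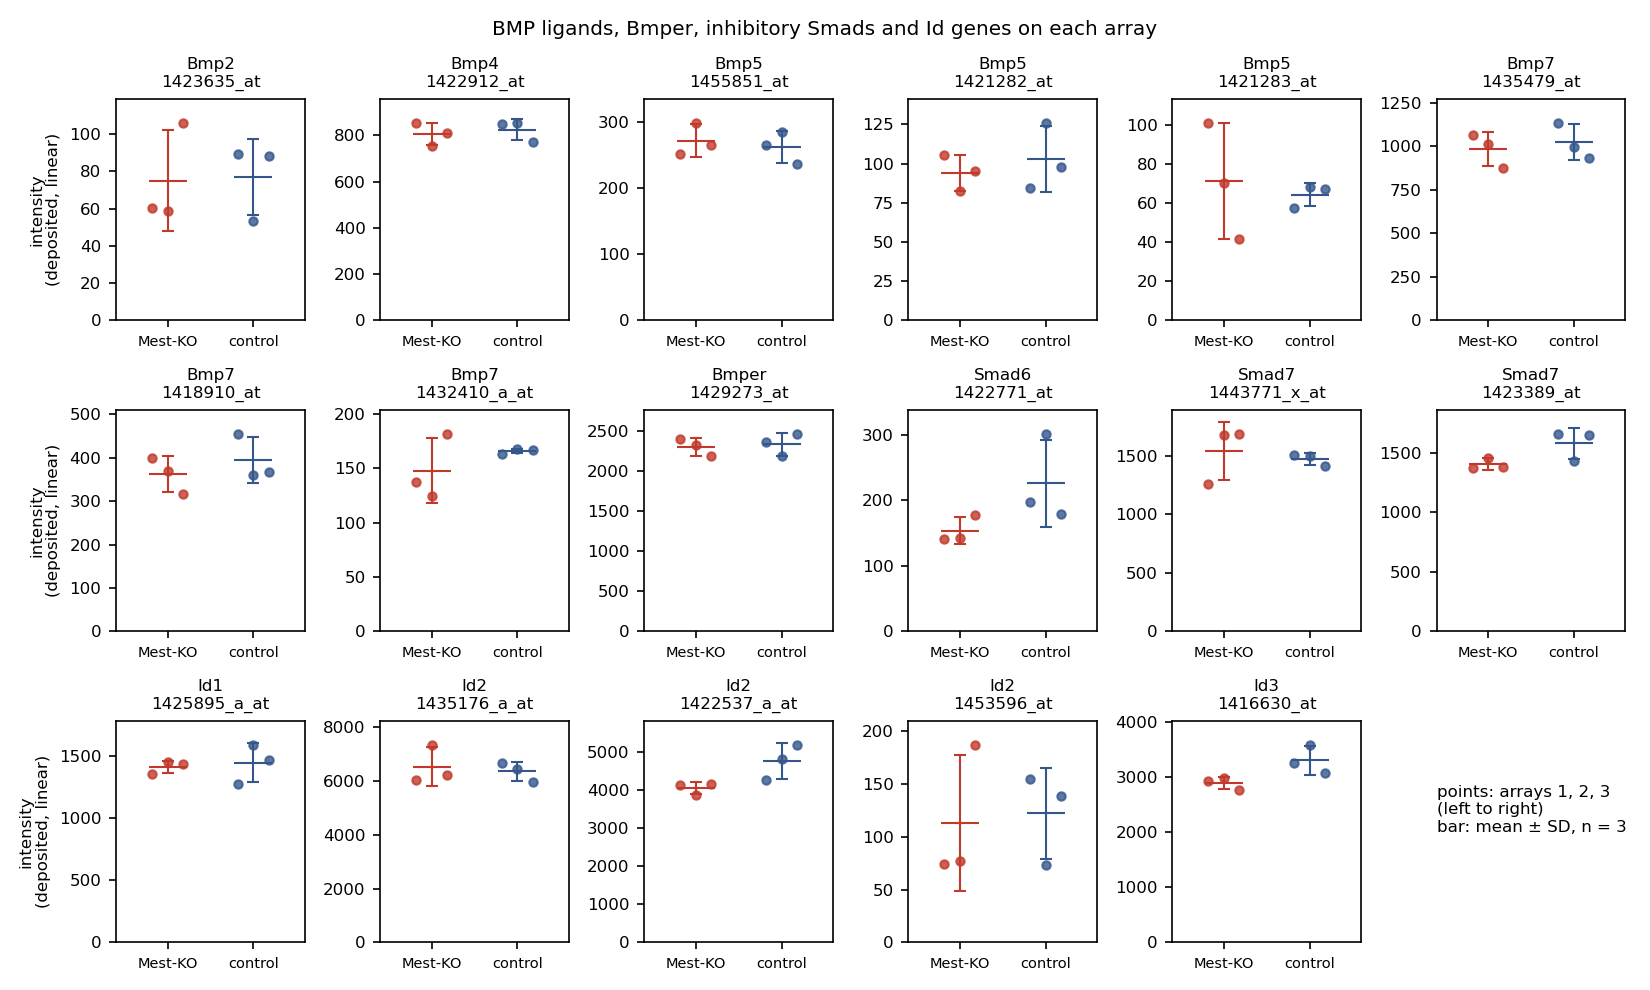
Deposited linear intensity of each of the 17 probe sets (vertical axis, from 0) on the 3 Mest-KO and 3 control arrays, with points for arrays 1 to 3 from left to right and bars for mean ± SD. Smad6, Id2 1422537_a_at and Id3 are the panels in which all Mest-KO points lie below all control points, and in Smad6 the control 2 point, at 302, stands apart.

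Among the ligands, Bmp4 is expressed in the presumptive sensory patches of the canals. It had 851, 754 and 810 in Mest-KO, against 848, 854 and 772 in control. The groups overlapped, with averages of 805 ± 48.9 in Mest-KO and 825 ± 45.9 in control (SD, n = 3 each). The difference was -0.044 (SE 0.0960), and its 95% interval from -0.28 to 0.19 does not reach a 2-fold change in either direction.

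Bmp7, a ligand that can pair with Bmp2 or Bmp4 in heterodimers, had 1063, 1015 and 876 on its brightest probe set (1435479_at) in Mest-KO, against 1135, 997 and 932 in control. The ranges overlapped, and the log2 difference was -0.060 (SE 0.117). On 1418910_at it had 399, 370 and 317 in Mest-KO, against 456, 360 and 368 in control, a log2 difference of -0.16 (SE 0.139), which was -0.059 without Mest-KO 3 and -0.074 without control 1. These 2 probe sets followed each other over the 6 arrays (Pearson correlation 0.95, a description). The dimmer 1432410_a_at had 137, 125 and 182 in Mest-KO, against 163, 168 and 167 in control. In these intensities the controls were tightly grouped and Mest-KO 3 lay above them. After quantile normalization Mest-KO 3 lay among the controls, at a log2 level of 7.38 against 7.34, 7.50 and 7.38. The log2 difference was -0.25 (SE 0.133).

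Bmp2, a ligand that the mouse ear needs to form its semicircular canals, was dim, with 60.4, 58.5 and 106 in Mest-KO, against 89.1, 53.5 and 88.1 in control. The high arrays were Mest-KO 3, control 1 and control 3, as on the dim Id2 probe set. The fitted difference was -0.18 (SE 0.208). It ran from -0.35 without control 2 to -0.071 without Mest-KO 2, and was -0.056 with the deposited scaling. The means of the deposited intensities, 75.0 in Mest-KO and 76.9 in control, were closer than this. Quantile normalization set Mest-KO 3 to a log2 level of 6.44 here, close to the 6.49 and 6.47 of control 1 and control 3.

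Bmp5, the gene of the short ear mouse mutant, had 252, 299 and 266 on its brightest probe set (1455851_at) in Mest-KO, against 265, 285 and 237 in control, a log2 difference of -0.0041 (SE 0.129), or 0.055 with the deposited scaling. The groups overlapped. On 1421282_at it ranged from 82.3 to 105 in Mest-KO and from 84.8 to 126 in control, with a log2 difference of -0.25 (SE 0.226). Without control 1 it was -0.40, without control 2 it was -0.047, and the deposited scaling gave -0.11. On 1421283_at it ranged from 42.0 to 101 in Mest-KO and from 57.6 to 68.4 in control, with a log2 difference of -0.20 (SE 0.489). Mest-KO 1 was the highest and Mest-KO 3 the lowest array there, and without Mest-KO 3 the difference was 0.37.

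Bmper encodes a secreted, chordin-like protein that binds BMPs outside the cell and can restrain or promote their signal. It had 2389, 2318 and 2177 in Mest-KO, against 2356, 2177 and 2461 in control. The groups overlapped, averaging 2295 ± 108 in Mest-KO and 2331 ± 144 in control (SD, n = 3 each). Their difference was -0.014 (SE 0.0967), with a 95% interval from -0.25 to 0.22.

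**Figure D2:**
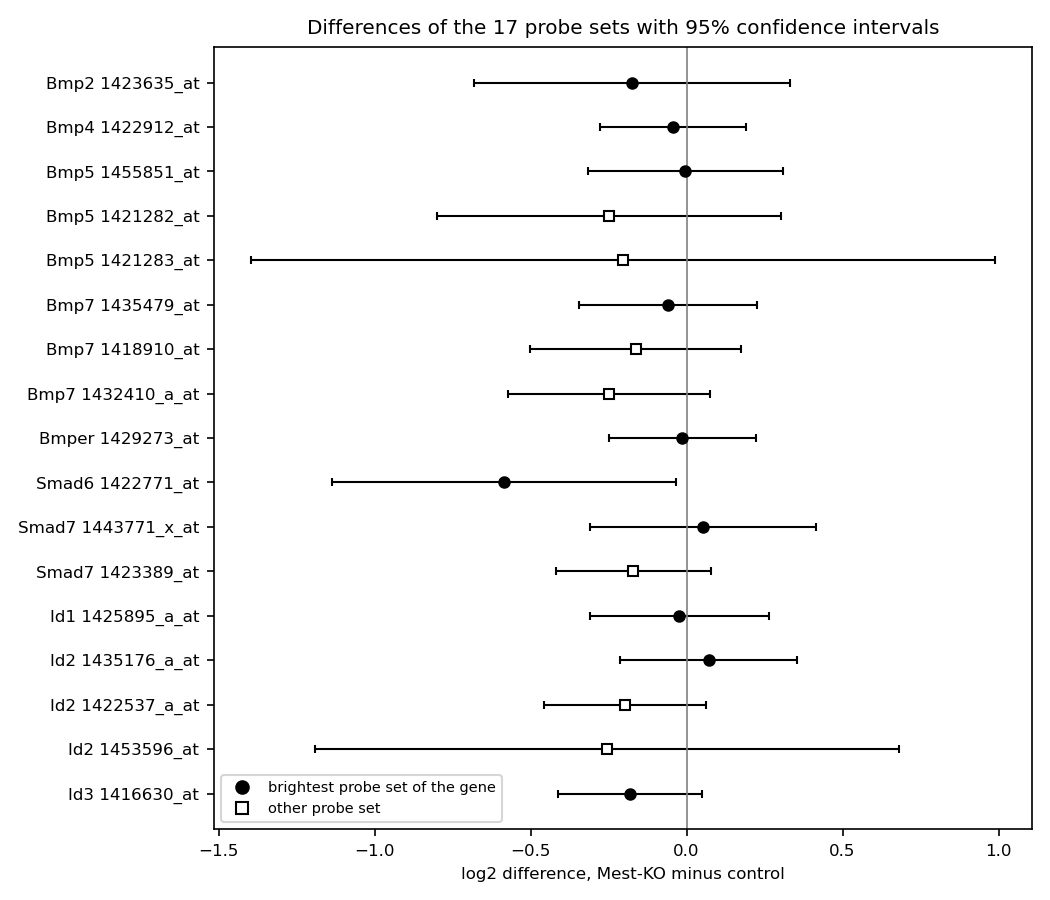
Log2 difference (Mest-KO minus control, horizontal axis) of the 17 probe sets with the 95% confidence interval of the limma fit, filled circles for the brightest probe set of a gene and open squares for its others. The interval of Smad6, from -1.14 to -0.033, is the one that leaves out 0, and the others include it.

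The intervals, which are not adjusted for the number of probe sets, show what these arrays could resolve. For 14 of the 17 probe sets the 95% interval stayed inside a 2-fold change in either direction (a log2 difference of 1). For 10 it stayed inside a log2 difference of 0.5. The exceptions to the first limit were Smad6 and the dimmest probe sets of Bmp5 and Id2. For 16 of 17 the interval included 0.

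The means of 15 of 17 probe sets were lower in Mest-KO, against 51.7% of all probe sets, and the median difference was -0.17, against -0.0072 over all. Counted with 1 probe set per gene, the brightest, 8 of 10 were lower. Their median was -0.034, so the median of -0.17, more than the count, leans on the other probe sets of genes read several times. Without Mest-KO 3, which stood apart in median intensity, 12 of 17 were lower, and without both pools of 1 sex 13 were. The count also depends on the scaling. With median centring of the arrays, which moved the median of all probe sets to -0.12, 17 of 17 and 73.0% of all were lower. With the deposited scaling alone 13 of 17 and 44.2% of all were lower, with a median of -0.056. Relative to the median of all probe sets the members lay at -0.16 with quantile normalization and at -0.082 with either other scaling. The last value is the same for both by construction, because median centring shifts every probe set of an array by the same amount. Smad6 was lower without overlap under all 3 scalings, at -0.58, -0.68 with median centring and -0.53 with the deposited scaling. Id3 and Id2 1422537_a_at were so with quantile normalization and with the deposited scaling, and overlapped with median centring. Bmp7 1432410_a_at (-0.33) and Smad7 1423389_at (-0.32) were lower without overlap with median centring only. The share of all probe sets lower without overlap was counted with quantile normalization only. The members without overlap under the other scalings therefore cannot be set against all probe sets.

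Where a gene had several probe sets, the gap between each pair of them was compared between the groups. None of the 10 pairs separated the groups, and the smallest exact permutation p adjusted over the pairs was 0.75. For Id2, the gap between the brightest probe set and 1422537_a_at was 0.69 log2 units in Mest-KO and 0.43 in control (exact permutation p 0.3). For Smad7 the corresponding gap was 0.12 in Mest-KO and -0.10 in control (exact permutation p 0.2). With 3 arrays per group, p cannot fall below 0.1 in these tests.

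The rest of the pathway was read in a list of 63 genes, of which 59 were in the table and 43 passed the filter, each from its brightest probe set. In the limma fit over 12462 genes none of the 43 passed an adjusted p of 0.05, as 0% of all genes did, and 1 had an unadjusted p under 0.05, against 5.14% of all genes. Of the 43, 17 were lower and 26 higher in Mest-KO, against 50.9% lower over all genes, with a median of 0.033.

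The gene with an unadjusted p under 0.05 was Fst, which encodes follistatin, a secreted protein that binds activins and, more weakly, BMPs. It had 1080, 1395 and 1025 in Mest-KO, against 3649, 2711 and 2368 in control, with no overlap. The fit placed it at -1.31 (SE 0.201). In the fit over genes the limma adjusted p was 0.390, and 0.00536 when limma's trend option tied the variance prior to expression level. With that option 13 of 12462 genes passed (0.104%), of which 1 was in the list of 63. In the separate fit over probe sets the trend option passed 14 of 27022 (0.0518%), none of them among the 17 BMP probe sets, whose smallest adjusted p was 0.968. Their unadjusted limma p with that option was under 0.05 for Smad6 (0.0262), Id2 1422537_a_at (0.0310) and Id3 (0.0354). The share of all probe sets under that p with the trend option was not counted, so these members cannot be set against all probe sets. Smad6, Id2 1422537_a_at and Id3 were also the members without overlap on the same arrays after quantile normalization. Their unadjusted p with the trend option is therefore not separate evidence of a difference.

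Of 10 receptor and co-receptor genes 3 were lower and 7 higher, and Bmpr1a differed by 0.021 (SE 0.0993), Bmpr1b by 0.039 (SE 0.105) and Bmpr2 by 0.15 (SE 0.120). Rgmb, a co-receptor gene, had the smallest p of this list, with 1281 ± 237 in Mest-KO and 1003 ± 57.2 in control (SD, n = 3 each), a log2 difference of 0.34. Rgma, its relative, differed by -0.18, and Acvr2a, a type II receptor gene, by 0.075.

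Of the Smads that carry the signal, Smad1 differed by 0.081 (SE 0.0906), Smad4 by 0.060 (SE 0.0948) and Smad5 by -0.21 (SE 0.197), and Smad9 lay below the filter. Of 7 other inhibitors inside the cell or in its membrane 1 was lower. This was Bambi, a decoy receptor gene that BMP signals induce, with 1157 ± 44.5 in Mest-KO and 1313 ± 80.0 in control (SD, n = 3 each), a log2 difference of -0.17 (SE 0.0836, limma adjusted p 0.909). Smurf1, a ubiquitin ligase gene, differed by 0.12, Skil by 0.058 and the phosphatase gene Ppm1a by 0.045.

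Of 9 other secreted antagonists and binding proteins above the filter 7 were lower, with a median of -0.14. Besides Fst, Sostdc1 differed by -0.26 (SE 0.144), Twsg1 by -0.0085 (SE 0.0745) and Fstl1 by 0.041 (SE 0.104). Nog and Chrd, the genes of the classical antagonists noggin and chordin, lay below the filter, with 2.81, 12.8 and 32.5 in Mest-KO against 27.6, 16.9 and 11.7 in control for Nog. Chrd had 3.67, 28.7 and 29.7 in Mest-KO, against 9.00, 11.5 and 27.7 in control. Within each group these dim values spread widely. Of the other ligands Bmp6 and Bmp8b passed the filter. Bmp6 had 42.5, 71.0 and 10.4 in Mest-KO, against 58.4, 52.3 and 94.8 in control, a log2 difference of -1.33 (SE 0.888). Bmp8b had 84.8, 139 and 55.4 in Mest-KO, against 142, 133 and 157 in control, a log2 difference of -0.94 (SE 0.448). On both genes the array Mest-KO 3 was the lowest.

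Of 12 other genes known to respond to BMP 3 were lower and 9 higher, with a median of 0.045. Gata2, a zinc finger transcription factor gene, had 4464 ± 162 in Mest-KO and 5400 ± 501 in control (SD, n = 3 each), a log2 difference of -0.22 (SE 0.0970). Msx2, a homeobox gene, differed by -0.19 (SE 0.105) and Hey1 by -0.17 (SE 0.0952), while Msx1 differed by 0.11 (SE 0.101) and Dlx5, a homeobox gene of the dorsal vesicle, by 0.031 (SE 0.0879). Their limma adjusted p was 0.909 or more.

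**Figure D3:**
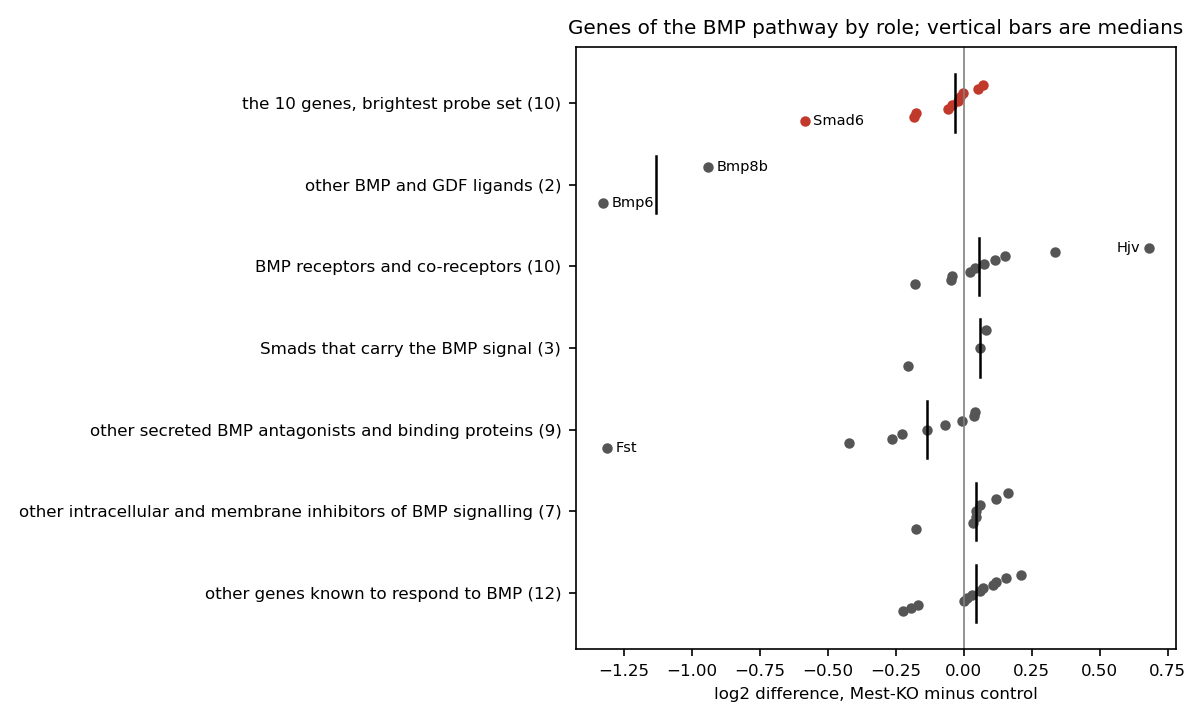
Log2 difference (Mest-KO minus control, horizontal axis) of the brightest probe set of each of the 10 BMP genes (red) and of the other pathway genes above the filter (grey), by role, with the number of genes in brackets and the median as a vertical bar. Smad6 at -0.58 lies apart from the other 9 red points, and Fst, Bmp6, Bmp8b and Hjv are the grey points beyond 0.5 in either direction.

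The arrays themselves were checked with whole marker lists. Oc90, Epcam, Cdh1 and Krt18, markers of otic or general epithelium, were bright on every array. Pax8 of the same list was dim, averaging 120 in Mest-KO and 101 in control. The red blood cell marker Hbb-y averaged 13971 in Mest-KO and 14133 in control, above Oc90 at 11169 and 11726. Sox10 (4735 and 4842) and Erbb3 (7676 and 7787), listed under neural crest and glia, were bright too. These levels do not show that the tissue was epithelium alone. The summed intensity of 9 otic epithelial markers ranged from 40414 to 44150 in Mest-KO and from 44978 to 47749 in control, without overlap, and 7 of 9 were lower in Mest-KO. The sum is weighted to the brightest genes, and the mean log2 level of the 9 overlapped, from 11.16 to 11.41 in Mest-KO and from 11.34 to 11.38 in control, with a median difference of -0.078. Of 12 periotic mesenchyme markers 11 were higher, with summed intensities from 2294 to 6688 in Mest-KO and from 1760 to 4451 in control. Of these 12 markers 1, Snai2 (0.56), had an unadjusted p under 0.05, with no overlap and a limma adjusted p of 0.659. Of 10 neuroblast and ganglion markers 5 were lower and 5 higher, with mean log2 levels from 8.46 to 8.68 in Mest-KO and from 8.30 to 8.48 in control. Among them 3 had an unadjusted p under 0.05 and no overlap, Insm1 (1.04), Neurod1 (0.57) and Elavl3 (0.38), with limma adjusted p of 0.622 or more. The 5 lower were Neurod4 (-0.13), Tubb3 (-0.11), Stmn2 (-0.076), Isl1 (-0.063) and Elavl4 (-0.014). Over all genes 5.14% had an unadjusted limma p under 0.05, and the share of genes without overlap was not counted. Of 7 macrophage markers 3 lay above the filter, all 3 lower, with a median of -0.65 and summed intensities of all 7 from 222 to 339 in Mest-KO and from 233 to 557 in control. Above the filter, neural crest and glia had 1 marker lower and 3 higher, red blood cells 3 lower and 2 higher, and other ectoderm and endoderm 1 lower and 2 higher. The part of these shifts in the values of Smad6, Id2 and Id3 was not tested. Tbx1, read by 1 probe set, ranged from 704 to 910 in Mest-KO and from 690 to 898 in control. The deletion was aimed at mesoderm, and where the probe set lies relative to the deleted part is not known here, so this checks nothing. Xist was 16.1 and Eif2s3y 2663 in Mest-KO 1, while Xist was 5034 and Eif2s3y 12.1 in control 2. These were the pools of 1 sex, opposite to each other. The median intensity was 91.0 on Mest-KO 3 and from 62.1 to 71.0 on the others.

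**Figure D4:**
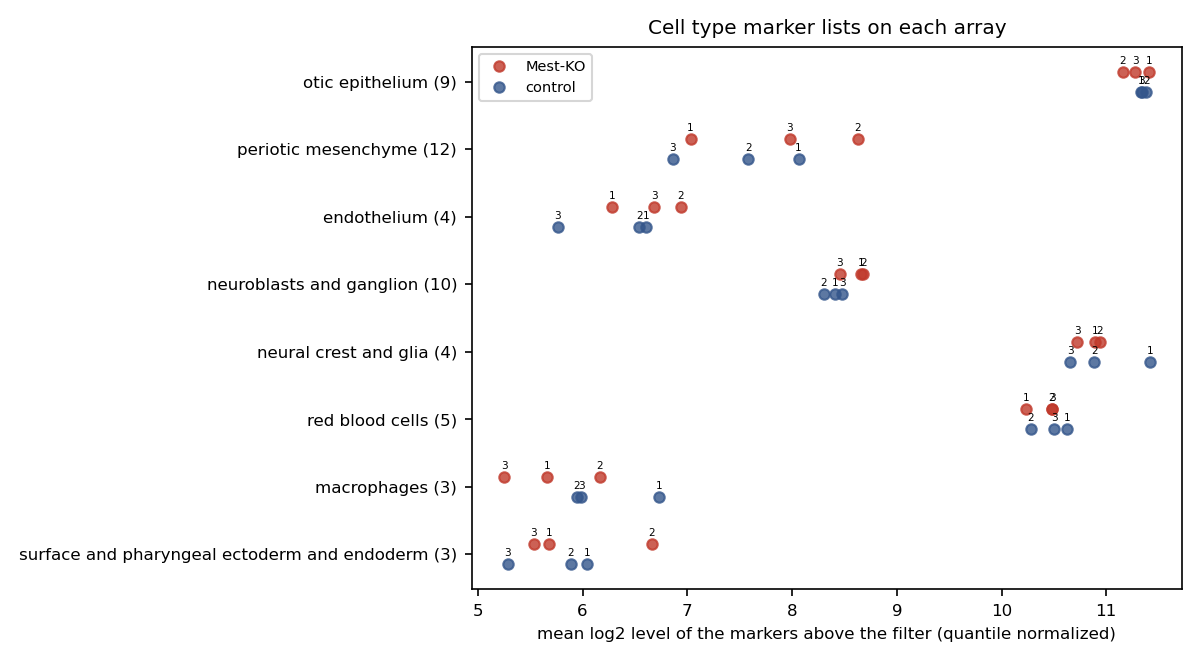
Mean log2 level (horizontal axis) of the markers above the filter for 8 cell types on each array, with Mest-KO in red above control in blue and the array number over each point. The mesenchyme list spreads most in both groups, from 7.03 to 8.63 in Mest-KO and from 6.86 to 8.06 in control.

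For 4 of the genes, those whose level over the 6 arrays was most alike were looked up among 12461 others by Pearson correlation of log2 levels. With so many genes and 6 arrays high values arise readily, so they are given as descriptions. Nearest to Smad6 were Itga9 (0.99), Nuf2 (0.98) and Rbm43 (0.98), and to Bmp4 Cds1 (0.99), Msto1 (0.99) and Ssbp2 (0.99). Nearest to Bmp2 were Nes (0.99), Rps20 (0.98) and Cnih1 (0.98), and to Id1 Cdh7 (0.98), 1700037H04Rik (0.98) and Tcp11x2 (0.98). For Id1 10 genes exceeded a correlation of 0.95 and for Bmp4 30 did.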

How the data were processed

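Dissected tissue was digested with dispase (30 min, 37 °C) to strip periotic cells, and 300 ng of total RNA per array went into biotinylated cRNA, per the labels' protocols. Affymetrix Expression Console 1.1 was used, per the submitters' processing notes. The deposited values are linear probe set intensities, each array having a trimmed mean of 500 (2% trimmed at each end). The sources used here do not state how probes were summarised or background corrected. The labels call the arrays biological replicates, and their number limits the precision.

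Of 45101 probe sets 64 controls were left out. Intensities were floored at 1, log2 was taken and arrays were quantile normalized. Probe sets above the 40th percentile of mean level (27022) were tested with limma 3.58.1 in R 4.3.3 (no trend, no covariate). The gene-level fit used each gene's brightest probe set (12462 genes). Symbols came from the platform annotation, updated through RefSeq identifiers for 34741 of 34945 probe sets with 1 symbol. The limma fit was also run on simulated arrays with independent noise. The shifts set there were larger than any difference of the 17 probe sets, so that run does not bear on differences of their size. Python 3.11.15 and matplotlib 3.10.9 drew the figures.

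The members and lists were chosen with earlier results of these data known. Named are all members, per pathway list the 2 tested genes with the smallest p and the 2 with the highest level, and 10 fixed genes. Hjv and the marker genes named were chosen after their values were seen. Alternatives were other filters, scalings, floors, variance priors, array weights, a replicate block, left-out arrays, a threshold of 0.10 and other rules for several probe sets. Same-numbered arrays did not deviate together over the probe sets tested (correlations of -0.04, -0.01 and 0.03). Such correlations cannot exclude a pairing, which the fit reported did not use.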

Additional observations from a re-analysis of the deposited data

How the results depend on the processing

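No BMP probe set passed under any alternative (smallest adjusted p 0.717), and 0 of 17 were called with the trend and at a threshold of 0.10. In the fits with 1 value per gene 0 of 10 were called. The count over all probe sets, 0 in the fit reported, was 9 when only probe sets above the 60th percentile were tested, 15 with median centring, 1 without a filter, 14 with the trend, 17 with robust fitting added and 1 at a threshold of 0.10. Among the other pathway genes 1 passed with median centring and with the trend, robust or not, each time Fst. The replicate block gave 0 probe sets and a smallest adjusted p of 0.954 for the members, so it changed no call. The median difference of the 17 was -0.056 with the deposited scaling and -0.21 with median centring. Leaving out 1 array gave -0.14 to -0.059 (the last without Mest-KO 3), while the number of lower means ran from 12 to 16. Of 282 alternative values set against single probe sets, some of them means over all probe sets of a gene, 23 differed in sign. The filters, the variance priors, the higher floor and the replicate block left every difference as it was, so their values could not change sign. Nor could the mean of probe sets for genes with 1 probe set. The 282 therefore overstate how many values could have moved. Bmp5 1455851_at was 0.055 with the deposited scaling and 0.13 without the pools of 1 sex, Bmp5 1421283_at 0.059 with the deposited scaling, Id1 0.089 without the pools of 1 sex, and Bmper 0.00043 with array weights. With median centring Smad7 1443771_x_at was -0.10 and Id2 1435176_a_at -0.12. The mean over all probe sets of the gene was -0.059 for Smad7 and -0.13 for Id2. These means were set against the same 2 probe sets in the count and include the lower probe sets of each gene. With an array left out, Bmp4 ran from -0.082 to 0.0010, Bmp5 1455851_at from -0.082 to 0.080, Bmp5 1421283_at from -0.61 to 0.37, Bmp7 1435479_at from -0.11 to 0.014, Bmper from -0.065 to 0.030, Smad7 1443771_x_at from -0.028 to 0.20, Id1 from -0.12 to 0.050 and Id2 1435176_a_at from -0.0051 to 0.13. Smad6 kept its sign under all alternatives, from -0.74 to -0.29. The cause of these shifts was not tested.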
